A study of Mus musculus with 36 samples.

Results

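The 27 genes described here carry out or control cholesterol synthesis, and they were listed by name, without a threshold on any measured value, but with earlier results of these data known. They are 27 of the 26348 gene identifiers in the count files of this single-cell study of mouse microglia. By role they are 6 genes of the SREBP machinery, 8 of the mevalonate and isoprenoid arm, 3 that make squalene and lanosterol, 9 that turn lanosterol into cholesterol, and the sterol transfer gene Stard4. All 27 were found in the files and all 27 passed the filter on low counts.

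Cells build cholesterol from acetyl-CoA through mevalonate, the isoprenoids, squalene and lanosterol. The sterol regulatory element binding proteins (SREBPs) are transcription factors held in the endoplasmic reticulum with Scap, where Insig proteins retain them while sterols are plentiful. When sterols run low, Scap carries them to the Golgi, the proteases of Mbtps1 and Mbtps2 release them, and SREBP-2 then switches on most of the synthesis genes and the LDL receptor. In the adult brain astrocytes and oligodendrocytes are the best known makers of sterol, and microglia also take it up with lipoproteins and myelin debris.

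The cells came from male mice aged 6 months, which carried either the APPswe and PSEN1dE9 transgenes (APP/PS1, called APP) or no transgene (WT). The sources used here do not give the promoter that drives the transgenes. Microglia of cortex or hippocampus were sorted by FACS into multiwell plates as intact nucleated cells with high CD11b and intermediate CD45, and were sequenced by a protocol derived from Smart-seq2. CD11c, the integrin encoded by Itgax, split them into a CD11c-negative gate, sorted from WT and APP mice, and a CD11c-positive gate, sorted from APP mice alone. The 6 groups were WT cortex CD11c-negative (390 cells), APP cortex CD11c-negative (454), APP cortex CD11c-positive (587), WT hippocampus CD11c-negative (438), APP hippocampus CD11c-negative (426) and APP hippocampus CD11c-positive (362). Each group had 4 replicates, 1 per animal name in the titles, except CD11c-positive APP hippocampus, which had 3 named 1-2, 2-3 and 4. The first 2 of those names may stand for pooled animals, and if so they may share animal 2.

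The genotype tag of the labels contradicted the title in 17 of the 36 libraries, and the titles were used for the groups. The titles also carry a number read here as a library set, whose meaning was not established. It was 1 or 2 in WT cortex, 3 to 6 in both gates of APP cortex and 7 or 8 in WT hippocampus. In APP hippocampus it was 9 or 10 for CD11c-negative and 11 or 12 for CD11c-positive cells. Only the cortical gates shared sets, so no other difference between groups can be told apart from one between sets. Summed replicates held 1037425 to 4484427 counts, and the 27 genes together held 38636 counts, or 0.0594% of the total. The 36 libraries drew on 83 distinct barcodes, of which 36 were in every library, and 0 cells had identical profiles in 2 places. All 10 microglial markers were above 0 in each group, with a summed level of 5266 to 16979 CPM (counts scaled to a common replicate total) across replicates. This sum was lower in the CD11c-positive gate, without overlap. It ran from 9577 to 12047 CPM in CD11c-negative and 5266 to 6007 in CD11c-positive APP cortex. In APP hippocampus the ranges were 15292 to 16979 and 7860 to 8963 CPM. WT replicates held 8621 to 12073 CPM in cortex and 11930 to 13355 in hippocampus. Itgax stood at 159 ± 50.5 CPM (SD, n = 4) in CD11c-positive cortex and 76.0 ± 10.4 (SD, n = 3) in CD11c-positive hippocampus, and its mean was at most 8.73 CPM in the CD11c-negative groups. Genes detected per cell at an equal depth of 5000 counts moved with the gate, from 548.0 ± 89.3 in CD11c-negative to 835.5 ± 135 in CD11c-positive APP cortex (SD, n = 4 each). In APP hippocampus the same measure was 621.6 ± 30.5 (SD, n = 4) in CD11c-negative and 870.0 ± 134 (SD, n = 3) in CD11c-positive cells. The mitochondrial share of counts moved with the gate as well, from 1.20% ± 0.296 to 2.49% ± 0.421 in APP cortex (SD, n = 4 each) and from 1.18% ± 0.104 (SD, n = 4) to 2.23% ± 0.304 (SD, n = 3) in APP hippocampus. WT cortex had 589.8 ± 63.7 genes per cell and WT hippocampus 436.9 ± 37.1 (SD, n = 4 each). Cells with a count of 2 or more markers of another cell type made up 14.3 to 27.6% of the cortical groups and 1.14 to 3.59% of the hippocampal ones. In cortex the summed oligodendrocyte markers reached 384 to 547 CPM in CD11c-positive and 132 to 268 CPM in CD11c-negative APP replicates, and the astrocyte markers 725 to 1856 and 392 to 1115 CPM. In hippocampus they were lower. Oligodendrocyte markers summed to 48.6 to 94.1 CPM in CD11c-positive and 12.9 to 133 CPM in CD11c-negative APP replicates. The astrocyte sums were 134 to 146 and 175 to 384 CPM, lower in the CD11c-positive gate without overlap, unlike in cortex. Cldn11, Aqp4 and Gfap were at 0 in both gates. Border-associated macrophage markers summed to 52.1 to 96.9 CPM in CD11c-positive and 0 to 12.1 CPM in CD11c-negative APP hippocampus, without overlap and with Cd163 and Cbr2 at 0 in both, and to 0 to 28.2 and 0 to 20.7 CPM in APP cortex. Neuronal markers summed to 378 to 1487 CPM over the cortical groups and to 0 to 185 CPM over the hippocampal ones. The monocyte markers in the files summed to 29.0 to 100 CPM in CD11c-positive and 0 to 53.2 CPM in CD11c-negative APP hippocampus. In WT hippocampus they summed to 0 to 5.80 CPM. In APP cortex they summed to 0.446 to 2.79 CPM in CD11c-positive and 0.305 to 57.3 CPM in CD11c-negative replicates. The part of these other cell types in the results below was not tested beyond the fits named there.

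The bases upstream of 3 genes are shown. Hmgcs1 was the one member with the SREBP core motif used here, Cyp51 the one member past the edgeR test, and Sc5d a member with the E-box CACGTG. Hmgcs1 and Sc5d were thus chosen for motifs that are marked below. The sequences are from RefSeq on GRCm38.p6, 5′ to 3′ along the gene's strand and outside annotated exons. Capitals mark CCAAT, bound by NF-Y, GGGCGG, bound by Sp1, the SREBP core TCACNCCAC, and the E-box CACGTG, each on either strand. Hmgcs1 is shown at chr13:119690101-119690350 on the plus strand, Cyp51 at chr5:4104747-4104947 on the minus strand and Sc5d at chr9:42264301-42264550 on the minus strand.
Hmgcs1: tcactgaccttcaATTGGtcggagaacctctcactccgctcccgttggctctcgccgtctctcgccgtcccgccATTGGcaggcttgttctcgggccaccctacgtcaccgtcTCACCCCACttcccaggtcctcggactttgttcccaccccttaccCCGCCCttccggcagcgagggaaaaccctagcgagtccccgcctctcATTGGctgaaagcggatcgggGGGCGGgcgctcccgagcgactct
Cyp51: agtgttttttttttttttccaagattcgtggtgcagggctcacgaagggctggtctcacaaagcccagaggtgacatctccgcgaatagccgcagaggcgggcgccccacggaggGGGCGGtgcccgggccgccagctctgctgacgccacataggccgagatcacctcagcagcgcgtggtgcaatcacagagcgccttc
Sc5d: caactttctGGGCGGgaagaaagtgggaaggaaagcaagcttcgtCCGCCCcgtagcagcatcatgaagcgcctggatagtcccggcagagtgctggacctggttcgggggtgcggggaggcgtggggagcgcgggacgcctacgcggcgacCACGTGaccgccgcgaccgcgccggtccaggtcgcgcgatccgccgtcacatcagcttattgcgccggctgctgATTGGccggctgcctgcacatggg
The Hmgcs1 stretch holds 3 CCAAT boxes on the reverse strand, and its SREBP core begins 137 bases before the RefSeq start, between the second and the last of them. The Cyp51 stretch ends 49 bases before the RefSeq start and holds a single GGGCGG. Sc5d has 2 GGGCGG boxes, an E-box and a CCAAT box that begins 24 bases before the start. In windows of 250 bases before to 50 bases after the start, 23 of the 27 members had a RefSeq entry. CCAAT was in 19 of the 23 against 41.1% of 27025 genes, and GGGCGG in 20 of the 23 against 38.2%. The core TCACNCCAC was in 1 of the 23 against 1.44%. None of the motifs overlapped another in these 3 stretches. CACGTG was in 4 of the 23 (Dhcr7, Hsd17b7, Sc5d and Scap) against 8.09%. These matches describe letters in a window and say nothing of binding in these cells.

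The 27 genes were sparse in every group. Each was counted in 12 (Hsd17b7) to 183 (Hmgcs1) of 2657 cells. Per length, Ebp and Pmvk stood highest, at 26.6 and 26.2 CPM per kilobase of exon over the 23 replicates, followed by Insig2 at 15.1, and Lss stood lowest at 0.218. Hmgcs1, Ggps1, Msmo1 and Srebf2 were above 0 in 23 of 23 replicates, whereas Stard4 and Mvd were above 0 in 7.

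**Figure D1:**
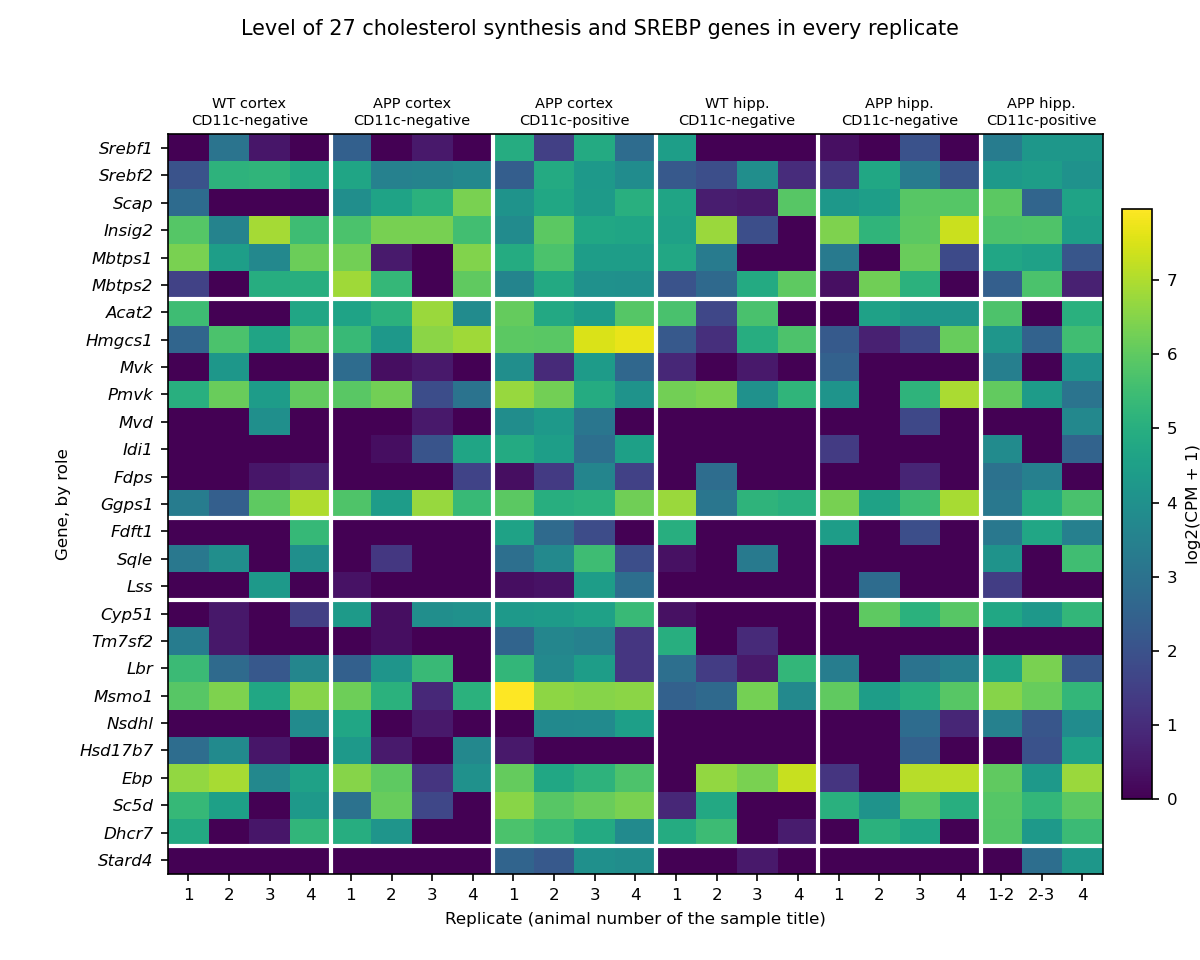
Level of each of the 27 genes (rows, grouped by role) in each of the 23 replicates (columns, by group), as log2(CPM + 1) with CPM scaled by TMM, edgeR's trimmed mean method. Stard4 is dark in 16 of the 23 replicates, and Tm7sf2 is dark in all APP hippocampal replicates.

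Summed over the 27 genes, the level on raw totals was 533 ± 139 CPM in WT cortex, 552 ± 108 in CD11c-negative and 799 ± 113 in CD11c-positive APP cortex (SD, n = 4 each). In hippocampus it was 387 ± 67.7 CPM in WT and 599 ± 260 in CD11c-negative APP cells (SD, n = 4 each), and 623 ± 126 in CD11c-positive APP cells (SD, n = 3). The CD11c-positive cortical replicates ran from 702 to 962 CPM and the CD11c-negative ones from 472 to 711, so they overlapped by 1 replicate on each side. Hippocampal CD11c-positive replicates (480 to 717 CPM) lay inside the range of the CD11c-negative ones (385 to 919 CPM). No test was made on these sums, because their members were chosen with earlier results of these data known.

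The share of cells in which any member was counted was highest in the CD11c-positive groups. At 5000 counts a cell it was 28.6% ± 2.90 in WT cortex, 26.5% ± 2.55 in CD11c-negative and 51.2% ± 6.63 in CD11c-positive APP cortex (SD, n = 4 each). In hippocampus it was 22.4% ± 3.51 in WT, 32.0% ± 10.7 in CD11c-negative APP (SD, n = 4 each) and 48.1% ± 12.2 in CD11c-positive APP cells (SD, n = 3). In cortex the 4 CD11c-positive replicates held 0.654 to 1.01 members per cell and the 4 CD11c-negative ones 0.291 to 0.409, with no overlap. In hippocampus the ranges 0.468 to 0.881 and 0.239 to 0.577 overlapped. All genes, not the pathway alone, were detected more often in CD11c-positive cells at this depth, as the genes per cell above show.

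**Figure D2:**
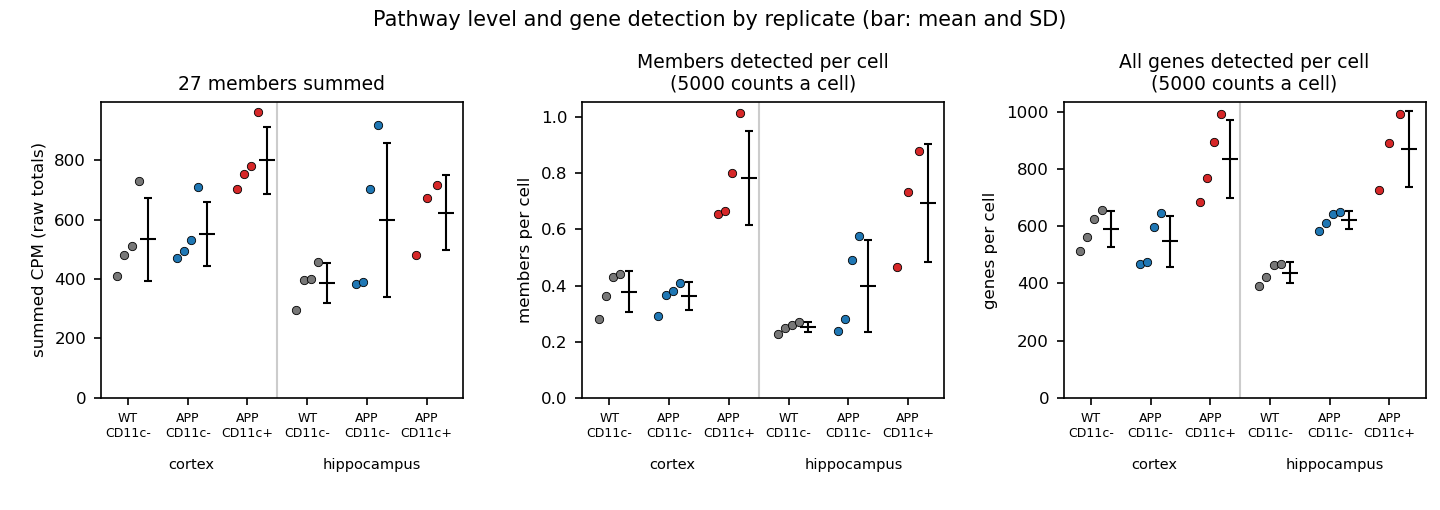
Summed CPM of the 27 genes on raw totals (left), members detected per cell (middle) and all genes detected per cell (right), the last pair at 5000 counts a cell; points are replicates and bars the mean and SD. In cortex the CD11c-positive points lie above all CD11c-negative APP points in the middle and right panels, and overlap them on the left.

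The 6 genes of the SREBP machinery summed to 203 ± 81.2 CPM in CD11c-negative and 128 ± 41.8 in CD11c-positive APP cortex (SD, n = 4 each), with overlapping replicates. This sum and the sums by role below are on raw totals. Srebf2, which encodes SREBP-2, had group means of 5.43 (WT hippocampus) to 25.2 CPM (WT cortex). Srebf1, which encodes the SREBP-1 forms that favour fatty acid genes, averaged 16.3 ± 14.4 CPM in CD11c-positive cortex (SD, n = 4) and 14.8 ± 4.88 in CD11c-positive hippocampus (SD, n = 3). Its means in the 4 CD11c-negative groups were 0.828 to 5.28 CPM, and in hippocampus its CD11c-positive replicates (9.17, 17.7 and 17.6 CPM) lay above all CD11c-negative APP ones (at most 3.04).

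Scap, the sterol-sensing escort of the SREBPs, was at 5.87, 0, 0 and 0 CPM in WT cortex replicates 1 to 4. In APP cortex it read 14.2, 23.5, 32.9 and 80.5 CPM in the CD11c-negative and 15.9, 25.7, 19.1 and 31.5 CPM in the CD11c-positive replicates. Hippocampal values were 24.2, 0.558, 0.459 and 58.9 CPM in WT, 17.8, 21.2, 58.9 and 57.2 in CD11c-negative APP and 60.7, 4.998 and 23.7 in CD11c-positive APP replicates. WT cortex thus lay below every APP cortex replicate, while WT hippocampus spanned nearly the whole APP range. The WT cortex value rests on 21 counts in 2 of 390 cells.

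Insig2, an endoplasmic reticulum protein that retains Scap, was one of the most abundant members. Its values were 56.5, 10.9, 117 and 43.9 CPM in WT cortex, 51.4, 79.5, 79.4 and 45.9 in CD11c-negative APP cortex and 13.3, 61.1, 26.0 and 24.6 in CD11c-positive APP cortex. In hippocampus they were 22.3, 108, 2.75 and 0 CPM in WT, 84.2, 35.8, 61.6 and 158 in CD11c-negative APP and 52.9, 54.0 and 21.0 in CD11c-positive APP cells. The groups overlapped in each region. By cells, Insig2 was counted in 4 of 438 WT hippocampal cells, 35 of 426 CD11c-negative APP cells and 32 of 362 CD11c-positive APP cells. The proteases Mbtps1 and Mbtps2 had group means of 8.85 to 46.3 and 15.8 to 53.6 CPM, with overlapping replicates in each comparison.

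The mevalonate and isoprenoid arm summed to 204 ± 74.4 CPM in CD11c-negative and 303 ± 55.2 CPM in CD11c-positive APP cortex (SD, n = 4 each). In hippocampus the sums were 160 ± 135 (SD, n = 4) and 136 ± 68.3 CPM (SD, n = 3). Hmgcs1, the synthase that makes HMG-CoA, had a mean of 127 ± 77.9 CPM in CD11c-positive cortex (SD, n = 4). It read 5.03, 51.0, 24.0 and 57.9 CPM in WT cortex, 40.1, 17.8, 94.3 and 112 in CD11c-negative and 60.7, 59.6, 182 and 206 in CD11c-positive APP cortex. Its hippocampal replicates read 3.66, 1.12, 29.8 and 52.7 CPM in WT, 3.73, 0.663, 2.28 and 68.7 in CD11c-negative APP and 17.3, 4.66 and 44.6 in CD11c-positive APP cells. CD11c-positive cortex lay above WT cortex in all replicates but overlapped CD11c-negative APP cortex, and the 3 hippocampal groups overlapped one another.

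Idi1, the isomerase of isopentenyl diphosphate, was at 0 in all 8 WT replicates of both regions, where 0 of 828 cells had a count. CD11c-negative APP replicates read 0, 0.240, 3.16 and 24.5 CPM in cortex and 1.598, 0, 0 and 0 in hippocampus. CD11c-positive replicates read 28.2, 21.1, 6.57 and 22.1 CPM in cortex and 13.3, 0 and 4.73 in hippocampus. All 4 CD11c-positive cortical replicates were above 0, from 17 of 587 cells. The counts in CD11c-negative APP cortex came from 3 of 454 cells.

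Pmvk, the phosphomevalonate kinase, read 31.3, 70.2, 20.1 and 64.6 CPM in WT cortex, 60.3, 75.2, 2.71 and 7.13 in CD11c-negative and 104, 75.8, 28.6 and 16.0 in CD11c-positive APP cortex. Its hippocampal replicates read 76.1, 83.2, 15.2 and 36.4 CPM in WT, 16.5, 0, 35.0 and 123 in CD11c-negative APP and 64.9, 19.7 and 7.44 in CD11c-positive APP cells. The groups overlapped throughout. Ggps1, which makes geranylgeranyl diphosphate for protein prenylation, read 9.23, 4.36, 61.9 and 129 CPM in WT cortex, 53.3, 19.9, 106 and 39.7 in CD11c-negative and 60.9, 30.9, 32.6 and 74.1 in CD11c-positive APP cortex. In hippocampus Ggps1 read 107, 7.82, 35.4 and 31.7 CPM in WT, 79.7, 23.2, 43.6 and 121 in CD11c-negative APP and 8.08, 27.3 and 50.03 in CD11c-positive APP cells, again with overlap. Exons of Ggps1 overlap Arid4b on the other strand, and the sources used here do not say whether counting used strand.

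Acat2, the cytosolic acetoacetyl-CoA thiolase at the start of the path, read 43.9, 0, 0 and 25.0 CPM in WT cortex, 23.7, 33.9, 107 and 13.2 in CD11c-negative and 67.2, 27.2, 20.003 and 57.0 in CD11c-positive APP cortex. Hippocampal replicates stood at 49.9, 2.23, 49.6 and 0 CPM in WT, 0, 22.5, 17.5 and 17.2 in CD11c-negative APP and 52.9, 0 and 32.5 in CD11c-positive APP cells. The groups overlapped in both regions. The kinase Mvk, the decarboxylase Mvd and the farnesyl diphosphate synthase Fdps were rare, with group means of 0.326 to 10.03, 0 to 10.02 and 0.190 to 5.66 CPM. Mvd was at 0 in all 4 WT hippocampal replicates.

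The 3 genes from farnesyl diphosphate to lanosterol had their lowest sum in CD11c-negative APP cortex, at 0.417 ± 0.646 CPM, against 29.8 ± 24.5 in CD11c-positive and 24.6 ± 21.6 in WT cortex (SD, n = 4 each). In hippocampus the sums were 8.79 ± 13.1 CPM in WT, 8.25 ± 10.3 in CD11c-negative (SD, n = 4 each) and 35.7 ± 18.4 in CD11c-positive APP cells (SD, n = 3). Sqle, the squalene epoxidase, read 8.11, 14.4, 0 and 14.6 CPM in WT cortex, 0, 1.44, 0 and 0 in CD11c-negative and 6.54, 12.5, 43.4 and 2.76 in CD11c-positive APP cortex. In hippocampus it read 0.282, 0, 8.72 and 0 CPM in WT, 0 in all 4 CD11c-negative APP and 15.9, 0 and 44.6 in CD11c-positive APP replicates. CD11c-positive cortex lay wholly above CD11c-negative APP cortex, whereas it overlapped WT cortex.

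Fdft1, the squalene synthase, had no count in CD11c-negative APP cortex (0 of 454 cells). Elsewhere its counts came from 1 to 9 cells a group: in WT cortex all 64 counts were in 1 cell, and in WT hippocampus 1 cell held 98.2% of 109 counts. In CD11c-positive cortex 1 cell held 78.0% of the 127 Fdft1 counts. Exons of Fdft1 overlap those of Ctsb on the other strand, a cathepsin gene at 1798 to 4362 CPM by group mean. Ctsb ran from 1626 to 2361 CPM in CD11c-negative and 3944 to 4787 in CD11c-positive APP cortex. In APP hippocampus the ranges were 1958 to 3523 and 3965 to 4417 CPM, so Ctsb was higher with the gate in both regions. Whether Ctsb reads add to the Fdft1 counts was not tested. Lss, the lanosterol synthase, was counted in 14 of 2657 cells, 9 of them in CD11c-positive cortex, and in 0 of 438 WT hippocampal cells.

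From lanosterol onward, the 9 genes summed to 145 ± 95.7 CPM in CD11c-negative and 330 ± 111 CPM in CD11c-positive APP cortex (SD, n = 4 each), with replicates of 60.4 to 259 and 266 to 497 CPM that did not overlap. Without Msmo1 the ranges were 40.5 to 189 and 174 to 260 CPM, which overlapped. WT cortex stood at 193 ± 102 CPM (SD, n = 4), with a highest replicate of 274. In hippocampus the sums were 147 ± 62.8 CPM in WT, 230 ± 110 in CD11c-negative (SD, n = 4 each) and 303 ± 60.2 in CD11c-positive APP cells (SD, n = 3). The hippocampal CD11c-positive replicates (233 to 338 CPM) lay above WT (at most 210) and overlapped CD11c-negative APP cells (119 to 328).

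Cyp51, the lanosterol 14-alpha-demethylase and first step of this stretch, is the one member past the edgeR test below. It read 0, 0.436, 0 and 1.83 CPM in WT cortex and 0.282, 0, 0 and 0 CPM in WT hippocampus. In CD11c-negative APP cells it read 19.2, 0.240, 14.4 and 15.3 CPM in cortex and 0, 62.3, 32.7 and 58.1 in hippocampus. CD11c-positive replicates read 18.2, 19.9, 22.3 and 41.2 CPM in cortex and 25.8, 18.0 and 37.9 in hippocampus. All 7 CD11c-positive replicates were above all 8 WT ones, and 1 CD11c-negative APP replicate in each region was as low as WT. The cells behind these values were few: 3 of 828 WT cells, 19 of 880 CD11c-negative APP cells and 33 of 949 CD11c-positive cells. In CD11c-negative APP hippocampus replicate 2, a single cell gave 98.9% of the 94 counts. Exons of Cyp51 overlap those of Akap9 on the other strand, and Akap9 stood at 149 to 270 CPM by group mean, lowest in CD11c-positive cortex, with 0 comparisons past the edgeR test. In hippocampus Akap9 averaged 155 ± 104 CPM in WT and 270 ± 51.9 in CD11c-negative APP cells (SD, n = 4 each). It averaged 223 ± 100 CPM in CD11c-positive APP hippocampus (SD, n = 3), so both APP means lay above WT, as for Cyp51, with overlapping replicates. Whether Akap9 reads add to the Cyp51 counts was not tested.

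**Figure D3:**
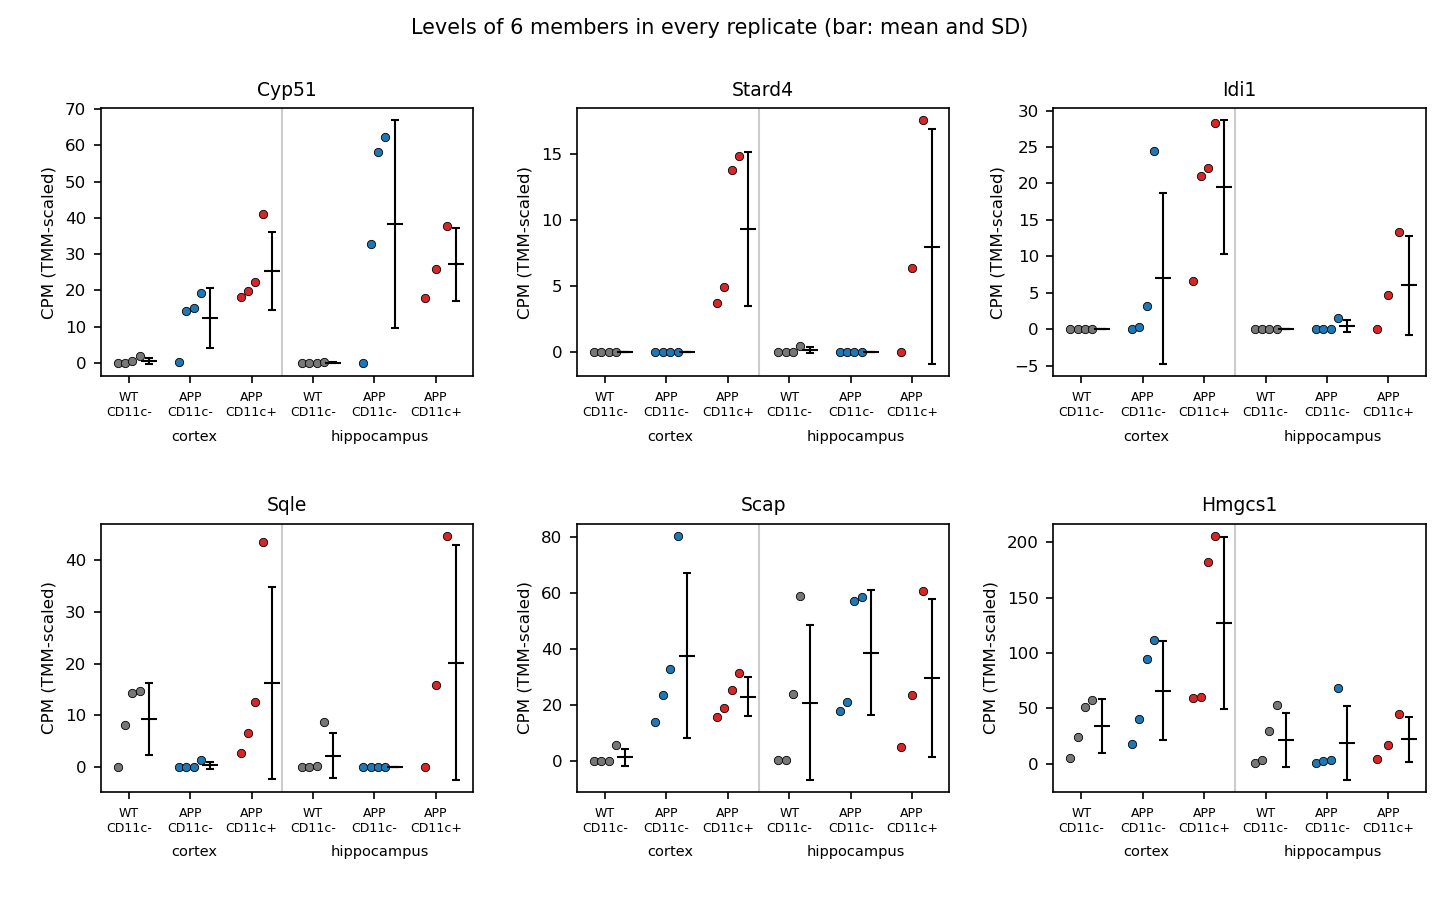
CPM (TMM-scaled) of Cyp51, Stard4, Idi1, Sqle, Scap and Hmgcs1 in every replicate by group; points are replicates and bars the mean and SD, which can reach below 0. Cyp51 is near 0 in all 8 WT replicates, and Stard4 is near 0 outside the CD11c-positive groups.

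Msmo1, a C-4 methyl sterol oxidase, had the most counts of the 27 genes (4406 in 182 cells). It read 57.9, 85.0, 26.0 and 90.2 CPM in WT cortex, 72.3, 32.9, 0.902 and 32.6 in CD11c-negative and 248, 96.6, 89.4 and 94.0 in CD11c-positive APP cortex. In hippocampus it read 4.51, 5.58, 77.6 and 12.3 CPM in WT, 64.2, 20.5, 30.7 and 58.1 in CD11c-negative APP and 91.1, 67.6 and 37.9 in CD11c-positive APP cells. CD11c-positive cortex lay above CD11c-negative APP cortex in all replicates, and hippocampal groups overlapped. Among APP cells thinned to 5000 counts, Msmo1 was counted in 9.63% (CD11c-positive) and 1.82% (CD11c-negative) of cortical cells, and in 7.93% and 3.42% of hippocampal cells.

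Sc5d, the lathosterol oxidase near the end of the path, read 38.9, 22.2, 0 and 18.9 CPM in WT cortex, 6.94, 68.4, 2.26 and 0 in CD11c-negative and 93.4, 58.1, 68.9 and 80.5 in CD11c-positive APP cortex. The hippocampal values were 0.845, 26.8, 0 and 0 CPM in WT, 32.0, 15.9, 55.8 and 31.1 in CD11c-negative APP and 56.8, 38.0 and 61.5 in CD11c-positive APP cells. CD11c-positive replicates lay above WT in both regions. They overlapped CD11c-negative APP cells, in cortex through replicate 2, where 285 counts came from 4 cells.

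Ebp, the sterol isomerase with the highest level per length, overlapped between all groups. It read 102, 120, 12.2 and 22.5 CPM in WT cortex, 91.2, 62.7, 1.35 and 15.3 in CD11c-negative and 67.2, 25.7, 34.6 and 52.0 in CD11c-positive APP cortex. In hippocampus it read 0, 101, 81.3 and 157 CPM in WT, 1.33, 0, 136 and 138 in CD11c-negative APP and 64.2, 18.7 and 107 in CD11c-positive APP cells. The CD11c-positive replicates lay within the range of the others in each region.

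Tm7sf2, a C-14 sterol reductase, had no count in the 788 APP hippocampal cells of either gate. WT hippocampus read 30.7, 0, 0.918 and 0 CPM, and all 109 counts of its replicate 1 were in 1 cell. In cortex it read 9.23, 0.436, 0 and 0 CPM in WT, 0, 0.240, 0 and 0 in CD11c-negative and 4.90, 11.6, 10.3 and 1.38 in CD11c-positive APP replicates, so the gates of APP cortex did not overlap. Exons of Tm7sf2 overlap Vps51 on the same strand. Lbr, the other C-14 reductase and a lamin receptor, had group means of 6.56 to 36.2 CPM. The dehydrogenase Nsdhl (0 to 11.9 CPM), the reductase Hsd17b7 (0 to 8.44 CPM) and the final reductase Dhcr7 (11.8 to 38.9 CPM) complete the stretch. Nsdhl and Hsd17b7 were at 0 in all 4 WT hippocampal replicates, and Hsd17b7 had 2 counts in 587 CD11c-positive cortical cells.

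Stard4, a cytosolic sterol carrier and SREBP-2 target, was at 0 in all replicates of WT cortex and of CD11c-negative APP cells in both regions. WT hippocampus held 1 count, in replicate 3 (0.459 CPM). CD11c-positive replicates read 4.90, 3.67, 14.9 and 13.8 CPM in cortex and 0, 6.33 and 17.6 in hippocampus. Its CD11c-positive counts came from 12 of 587 cortical and 2 of 362 hippocampal cells. A count of 0 in 454 CD11c-negative APP cortical cells or 426 hippocampal ones shows only that it was not detected at this depth. Only the CD11c-positive replicates held enough counts for Stard4 to pass the low-count filter. Tm7sf2 and Idi1 had too few other replicates with enough counts, so they too passed only with the CD11c-positive ones. The non-overlap, fold bounds and calls of Stard4, Tm7sf2 and Idi1 below thus partly follow from that filter. Other members rare outside the CD11c-positive groups may share this limit.

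**Figure D4:**
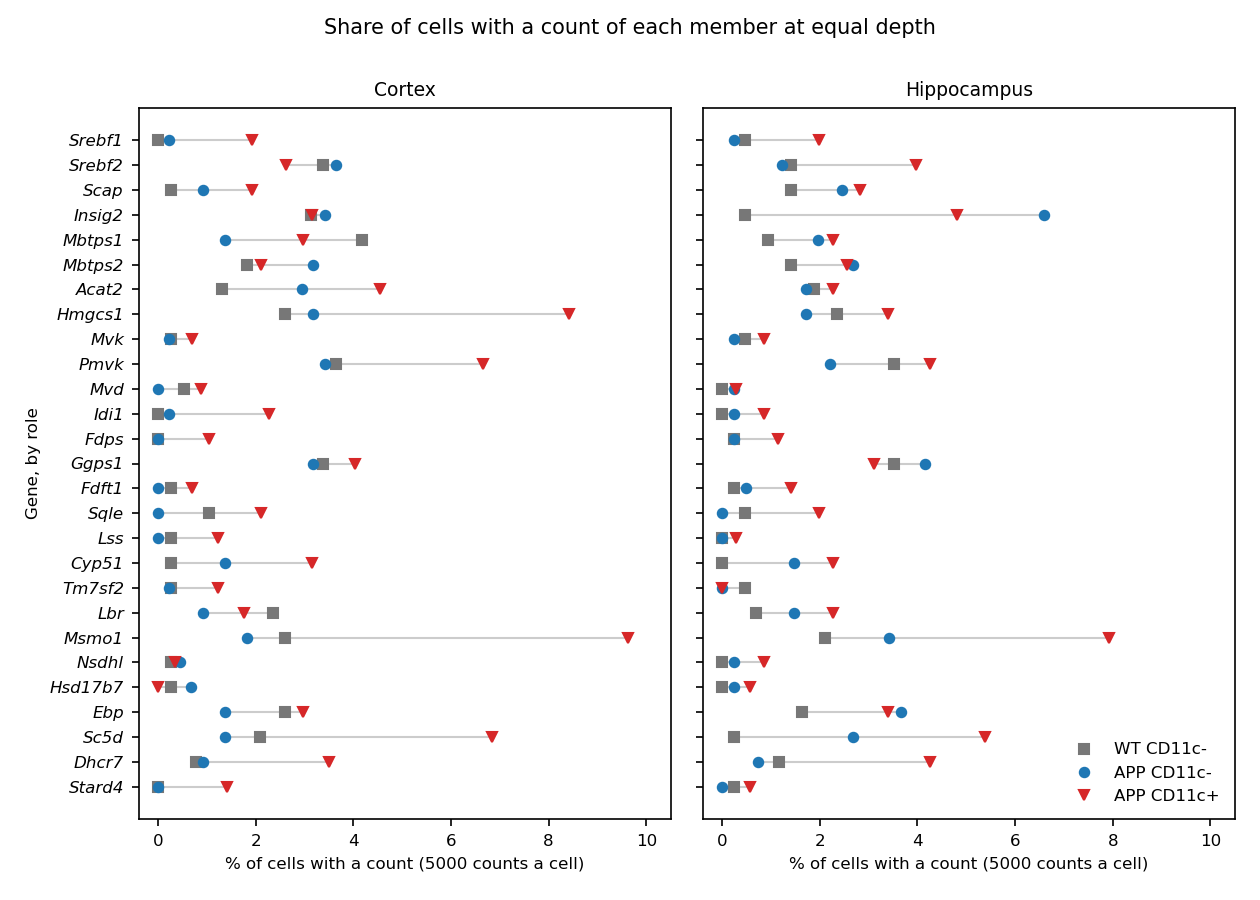
Share of cells with a count of each gene at 5000 counts a cell in cortex (left) and hippocampus (right), for WT CD11c-negative (grey squares), APP CD11c-negative (blue circles) and APP CD11c-positive cells (red triangles); all cells of a group are pooled. Msmo1 (9.63%) and Hmgcs1 (8.41%) reach the highest shares, in CD11c-positive cortex.

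CD11c-positive and CD11c-negative cells of APP cortex were compared to ask how the pathway differs with the gate in one genotype. Stard4, Sqle, Msmo1 and Tm7sf2 had higher values in each CD11c-positive replicate than in any CD11c-negative one (4 of 27 members, against 8.84% of the 14892 genes tested). Of these, Stard4 and Tm7sf2 passed the low-count filter only through CD11c-positive replicates, so their non-overlap is no independent result. In edgeR's quasi-likelihood test, with p-values adjusted over all genes by Benjamini-Hochberg, 0 of 27 members passed 0.05, against 1.23% of all genes. At an unadjusted p under 0.05 there were 7 members (12.1% of all genes): Stard4, Fdft1, Tm7sf2, Sqle, Mvd and Lss with positive and Hsd17b7 with a negative difference. DESeq2 called 1 member, Fdft1, and limma voom 1, Stard4. Against a floor of 3 counts over the group, Stard4 was at least 31.9-fold higher in CD11c-positive cells and Fdft1 at least 30.0-fold higher. Ratios to groups with 1 or 2 counts were 104 for Mvd (95% counting interval 18.4 to 4147), 68.8 for Lss (12.1 to 2746) and 70.9 for Tm7sf2 (12.4 to 2830). Hsd17b7 was lower by a ratio of 51.4 (13.7 to 433), and Sqle differed by 5.19 ± 2.31 on the log2 scale (SE, adjusted p = 0.372 in edgeR). Leaving out 1 replicate moved the fold by more than 1.5 times for each of them but Stard4. Without CD11c-positive replicate 3 the log2 differences of Sqle and Lss were 4.04 and 4.12, and without CD11c-positive replicate 1 that of Fdft1 went from 7.47 to 5.88. Hsd17b7 went from −5.56 to −4.71 without CD11c-negative replicate 1 and to −7.44 without CD11c-positive replicate 1. Without the 1 CD11c-negative replicate that held counts, fitted log2 values of Mvd, Tm7sf2, Sqle and Lss were 7.82, 7.22, 8.398 and 7.19. That left the CD11c-negative group at 0 counts, so these values are not measured folds. These intervals cover counting error only, and cells, not molecules, limit the precision. The median log2 difference was 1.05 over the 27 members and 0.19 over all genes, and 20 of 27 members lay above 0 against 55.2% of all genes. With the animal as replicate block in the groups compared the median was 2.17 over 26 members and 0.62 over all genes, and in libraries with matching tags 2.82 and 0.32. With genes per cell as covariate it was 0.72 over the members and 0.00 over all genes, and 2 members had an unadjusted p under 0.05. Without the cells carrying other cell types' markers it was 0.68 and 0.00, and the Stard4 difference was 7.69 (log2; adjusted p = 0.213 in edgeR).

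The gates of APP hippocampus were compared in the same way. Srebf1 was the 1 member whose CD11c-positive replicates all lay above the CD11c-negative ones (7.94% of all genes did), at a log2 difference of 4.01 ± 2.33 (SE, adjusted p = 0.594 in edgeR). Again 0 of 27 members passed the edgeR test, against 0.551% of all genes, and DESeq2 and limma voom also called 0. Sqle and Stard4 had an unadjusted p under 0.05, 2 members against 10.9% of all genes, and were at least 48.0-fold and 15.5-fold higher in CD11c-positive cells against a floor of 3 counts over the group. The Sqle counts came from 8 and the Stard4 counts from 2 of 362 cells, and without CD11c-positive replicate 4 the log2 differences went from 8.82 to 7.54 and from 7.48 to 6.16. The median difference was 0.89 over the members (0.94 with members at 0 in a group set at their bound) and 0.00 over all genes, with 17 of 27 members above 0 against 47.6% of all genes.

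APP and WT cells of the CD11c-negative gate, which came from separate library sets, were compared to ask how the genotypes differ outside the CD11c-positive cells. In cortex Scap was higher in all 4 APP replicates than in all 4 WT ones (1 of 27 members, 1.16% of all genes), at a log2 difference of 4.58 ± 1.61 (SE, adjusted p = 0.519 in edgeR). The edgeR test called 0 of 27 members and 0% of all genes, limma voom called 0, and DESeq2 called Fdft1 and Scap. An unadjusted p under 0.05 was reached by 4 members (9.09% of all genes): Scap, Idi1, Cyp51 and, lower in APP, Fdft1. Idi1 was at least 9.64-fold higher in APP and Fdft1 at least 23.6-fold lower, each against 3 counts over the group. All 64 Fdft1 counts of WT cortex were in 1 cell of replicate 4, without which no fold can be given, and without APP replicate 4 the Idi1 log2 difference went from 7.27 to 4.73. Cyp51 differed by 4.44 ± 1.68 (log2, SE; adjusted p = 0.519 in edgeR), and by 6.12 without WT replicate 4. The fitted Scap value was 9.70 without WT replicate 1, the one with counts, which left WT at 0 and gives no measured fold. Without APP replicate 4 the Scap difference was 3.90. The median difference over the members was −0.03 (−0.19 with members at 0 set at their bound), against 0.00 over all genes, and 11 of 27 members lay above 0 against 49.6% of all genes.

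In hippocampus Cyp51 was called higher in CD11c-negative APP than in WT cells, 1 of 27 members against 1.52% of all genes in either direction and 0.329% called higher. The log2 difference was 8.17 ± 2.00 (SE, adjusted p = 0.0322 in edgeR), and it was higher in 3 of 4 APP replicates. Since WT hippocampus held 1 count, the ratio of 321 had a 95% counting interval of 57.1 to 12704. The call rested on the full set of replicates: without any 1 of the 4 WT replicates, or of APP replicates 2, 3 or 4, the adjusted p was 0.0515 to 0.0992, and without APP replicate 1, which was at 0, it was 0.0123. Leaving out 1 replicate gave log2 differences of 7.84 to 9.69, the highest without WT replicate 1, which left WT at 0 counts. The call was lost with genes per cell as covariate (log2 7.35, adjusted p = 0.158 in edgeR), without the cells carrying other cell types' markers (9.50, 0.0986), in the libraries whose genotype tag matched the title (7.47, 0.307) and in limma voom (4.86, 0.105). It held in DESeq2 (8.34, 3.34e-05). Tm7sf2 and Sqle, both at 0 in APP cells, had an unadjusted p under 0.05 and were at least 33.9-fold and 6.11-fold lower against 3 counts over the group. Each rests on 1 WT replicate: without replicate 1 the Tm7sf2 log2 difference went from −7.48 to −2.97, and without replicate 3 that of Sqle went from −5.68 to −1.86. With Cyp51 that made 3 members, against 15.8% of all genes. The median difference was 0.55 over the members (0.67 with members at 0 set at their bound) and 0.01 over all genes, and 15 of 27 members lay above 0 against 50.3% of all genes. No member had all APP replicates above all WT ones (2.34% of all genes) or all below (2.32%).

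CD11c-positive APP cells were also set against WT cells, which shares samples with the comparisons above. In cortex Scap, Hmgcs1, Idi1, Cyp51, Sc5d and Stard4 were higher in all CD11c-positive than in all WT replicates (6 of 27 members, 7.93% of all genes). Of these, Idi1 and Stard4 passed the low-count filter only through CD11c-positive replicates. The edgeR test called 0 of 27 (1.07% of all genes), while limma voom called Cyp51, Idi1, Scap and Stard4 and DESeq2 called Cyp51. An unadjusted p under 0.05 was reached by 4 members, Scap, Idi1, Cyp51 and Stard4, against 11.6% of all genes. Idi1 was at least 62.6-fold and Stard4 at least 28.8-fold higher against 3 counts over the group, Cyp51 differed by 5.49 ± 1.76 and Scap by 3.87 ± 1.56 on the log2 scale (SE, adjusted p = 0.188 and 0.322 in edgeR). Without WT replicate 4 the Cyp51 difference was 7.17. Without WT replicate 1, which left WT at 0 counts, the fitted Scap value was 8.99. The median difference was 1.03 over the members and 0.15 over all genes, and 20 of 27 members lay above 0 against 54.9% of all genes.

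In hippocampus Srebf2, Cyp51, Nsdhl and Sc5d were higher in all 3 CD11c-positive than in all 4 WT replicates (4 of 27 members, 10.7% of all genes). Cyp51 was called, 1 of 27 members against 2.07% of all genes in either direction and 1.18% called higher, at a log2 difference of 7.68 ± 1.99 (SE, adjusted p = 0.0408 in edgeR) and a ratio of 257 to the 1 WT count (95% counting interval 45.7 to 10208). Leaving out any 1 of the 7 replicates raised the adjusted p in edgeR to 0.0661 to 0.114, at log2 differences of 7.33 to 9.19. The highest was without WT replicate 1, which left WT at 0 counts. With genes per cell as covariate the difference was 5.58 (adjusted p = 0.806 in edgeR). It was called by limma voom (adjusted p = 0.00592) and DESeq2 (0.000491). In all 7 members had an unadjusted p under 0.05 (17.3% of all genes). Against 3 counts over the group Idi1 was at least 25.6-fold, Nsdhl 29.0-fold, Hsd17b7 15.8-fold and Mvd 6.77-fold higher and Tm7sf2 at least 32.8-fold lower, and Stard4 had a ratio of 50.8 (8.66 to 2050). Tm7sf2 went from −7.48 to −2.97 (log2) without WT replicate 1, Idi1 from 7.09 to 5.63 without CD11c-positive replicate 1-2, and Hsd17b7 from 7.56 to 5.10 and Stard4 from 5.66 to 4.32 without CD11c-positive replicate 4. Stard4 was at 7.43 without WT replicate 3, which left WT at 0 counts. All 18 Mvd counts were in 1 cell of CD11c-positive replicate 4. The median difference was 1.47 over the members and 0.06 over all genes, and 22 of 27 members lay above 0 against 51.5% of all genes.

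Between the regions no member passed the edgeR test in WT cells (0 of 27, 1.63% of all genes), in CD11c-negative APP cells (0 of 27, 2.29%) or in CD11c-positive APP cells (0 of 27, 0.222%). In WT cells 5 members had an unadjusted p under 0.05 (22.2% of all genes): Scap, higher in hippocampus by 3.74 ± 1.55 on the log2 scale (SE, adjusted p = 0.164 in edgeR), and Hsd17b7, Lss, Mvd and Nsdhl, which were at 0 in hippocampus and at least 18.3-fold, 16.2-fold, 12.8-fold and 7.59-fold lower there. All WT cortex counts of Lss (47, in 1 cell) and Mvd (37, in 3 cells) were in replicate 3 and those of Nsdhl (22, in 1 cell) in replicate 4, and no fold can be given without that replicate. Without WT cortex replicate 2 the Hsd17b7 log2 difference went from −6.79 to −5.67. The fitted Scap value was 8.86 without WT cortex replicate 1, which left WT cortex at 0 counts. The Scap difference was 2.47 without WT hippocampus replicate 4. Scap was called by DESeq2, limma voom called 0, and edgeR called Scap once WT cortex replicate 1 was left out. In CD11c-negative APP cells 1 member, Fdft1, had an unadjusted p under 0.05 (18.6% of all genes), at least 34.6-fold higher in hippocampus, and DESeq2 called it while limma voom called 0. Its log2 difference went from 7.07 to 4.51 without hippocampal replicate 1, where 78 counts were in 1 cell. In CD11c-positive APP cells there were 2 (11.2% of all genes). Tm7sf2 was at least 19.6-fold lower in hippocampus and was called by limma voom, Hsd17b7 had a ratio of 35.7 (95% counting interval 9.29 to 305), and DESeq2 called 0. The Hsd17b7 log2 difference went from 5.66 to 3.17 without hippocampal replicate 4 and to 7.46 without cortical replicate 1. Hmgcs1 and Tm7sf2 were lower in each hippocampal than in any cortical CD11c-positive replicate, 2 of 27 members against 9.93% of all genes. No member was lower in each hippocampal replicate in WT cells (3.97% of all genes) or in CD11c-negative APP cells (4.83%). The members above 0 in the 3 comparisons were 10, 12 and 12 of 27, against 41.4%, 45.2% and 43.4% of all genes. The median differences were −0.46, −0.49 and −0.23 (−0.66, −0.23 and −0.23 with members at 0 set at their bound), against −0.22, −0.10 and −0.15 over all genes.

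Tests of whether the gate or the genotype difference itself differed between hippocampus and cortex called 0 of 27 members in edgeR, against 0% and 1.01% of all genes. For the gate 1 member (Hsd17b7) and for the genotype 2 members (Lss and Mvd) had an unadjusted p under 0.05, against 7.49% and 13.1% of all genes. DESeq2 called Fdft1 in both, and limma voom called 0.

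Other genes of sterol control and transport were taken as lists. Among the genes of sterol control, Insig1, the SREBP-2 target that closes the feedback, was called higher with the CD11c gate in cortex by 1.55 ± 0.29 and in hippocampus by 2.72 ± 0.31 on the log2 scale (SE, adjusted p = 0.00410 and 2.5e-05 in edgeR). That was 1 of 9 tested genes in each, against 1.23% and 0.551% of all genes. The list as a whole did not follow it, with a median log2 difference of 0.39 in cortex and −0.21 in hippocampus. Of the 9 genes, 6 and 4 lay above 0. Insig1 was lower in CD11c-negative APP than in WT hippocampus by a log2 difference of −2.21 ± 0.30 (SE, adjusted p = 9e-05 in edgeR; 1 of 9, 1.52% of all genes), in which Cyp51 was higher. Insig1 means were 456 ± 195 CPM in WT, 437 ± 97.4 in CD11c-negative and 1279 ± 152 in CD11c-positive APP cortex (SD, n = 4 each). In hippocampus they were 509 ± 143 CPM in WT, 109 ± 30.4 in CD11c-negative (SD, n = 4 each) and 723 ± 118 in CD11c-positive APP cells (SD, n = 3). Insig1 was also called against WT cortex, between the regions of CD11c-negative APP cells and for the genotype by region (1 of 9 in each, against 1.07%, 2.29% and 1.01% of all genes). None of 12 SREBP-1 fatty acid targets passed in any of the 11 comparisons, with 0 to 2 at an unadjusted p under 0.05 in each, against 7.49 to 22.2% of all genes. Of 12 tested genes of sterol efflux, storage and liver X receptor action, Apoe, Npc2 and Ch25h were called higher with the gate in both regions, and Lpl and Soat1 also in hippocampus (3 and 5 of 12, all higher, against 1.23% and 0.551% of all genes called in either direction). Against WT cells, CD11c-positive cells had 5 called higher in cortex (Apoe, Lpl, Npc2, Soat1 and Ch25h) and 4 in hippocampus (the same without Soat1). Of all genes 1.07% and 2.07% were called there in either direction. Abcg1, a sterol exporter, was called lower in CD11c-negative APP than in WT hippocampus, where 1 of 12 passed (1.52% of all genes). For the genotype in cortex 0 of 12 passed (0% of all genes), with 1 at an unadjusted p under 0.05 (9.09%). Between the regions, Lpl was called higher in WT hippocampus (1 of 12, 1.63%) and Abcg1 lower in CD11c-negative APP hippocampus (1 of 12, 2.29%). For the genotype by region Lpl and Abcg1 were called, both with a negative difference (2 of 12, 1.01%).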

How the data were processed

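Single sorted microglia were sequenced by a Smart-seq2-based protocol, per the labels' protocols. The authors deposited raw counts per gene and cell, 1 table per library, with no normalization. The submitters' processing notes name UMI-tools 0.5.3, HISAT2 2.1.0, featureCounts 1.6.0 and GRCm38. Whether molecular identifiers were merged before deposit is not stated in the sources at hand: 27.0% of non-zero values were 1 and 35.9% were at least 20, so a count may not be a molecule, and intervals and floors cover counting error only.

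A cell needed 200 genes or more and no more than 20% mitochondrial counts (2657 of 2660 passed, median 19482 counts and 805 genes). No doublet caller was run, and no cells were clustered. Counts were summed per animal, region and gate into 23 replicates, since cells are not replicates. Library totals were 956491 to 2340598 counts. A model with 1 mean for each of the 6 groups was fitted to 14892 genes after the low-count filter of edgeR 4.0.16 (quasi-likelihood test, TMM scaling, R 4.3.3), with Benjamini-Hochberg adjustment over all genes and a threshold of 0.05. The common biological coefficient of variation was 1.37. CPM of single genes is TMM-scaled, while sums over members, over a role or over the markers of a cell type are on raw totals. Differences on the log2 scale are first minus second group. Where a group held 0 counts, or kept 0 after a replicate was left out, the log2 value depends on a small count that edgeR adds. Such a value is not a measured fold. limma 3.58.1 (voom) and DESeq2 1.42.0 were alternatives, beside other scaling, filters, cell sets and left-out replicates. The scripts were tested on simulated data. To compare shares of cells at equal depth, cells were thinned to 5000 counts, which 2584 cells reached. Gene positions are from GENCODE vM21 on GRCm38, and all 26348 identifiers matched.

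Replicates carry separate animal numbers in the titles, except 1-2 and 2-3, which may share animal 2. P-values set the difference between groups against the spread between these samples. The main fit treated all samples as independent, also those of the same animal. The pairing of gates and regions by animal comes from the titles; deviations of same-animal samples correlated at 0.045 to 0.072 between the cortical gates, −0.032 to 0.026 between the WT regions and −0.061 to 0.050 between the CD11c-negative APP regions, over 3480 genes. The members and gene lists were chosen with earlier results of these data known. Replicate values were given for members past the test, for the 8 with the highest mean CPM, and for those with an unadjusted p under 0.01 in a gate, genotype or region comparison. Folds were given for members past the test or with an unadjusted p under 0.05. One result of the sterol control list is not reported here.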

Additional observations from a re-analysis of the deposited data

Results flagged for a closer look

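Among the 14 members with replicate values and the summed level, 68 groups of 4 replicates were checked for a sample far from the other 3, by Dixon's 95% criterion on its gap to its neighbour as a share of the range. Chance gives about 1 such sample in 20 groups of normally spread values, and 15 were found, all of them the highest of their group. A group with 3 values at 0 and 1 above meets the criterion by construction, which holds for 6 of the 15, so their number is not set against chance. In 7 cases the sample stood alone or nearly alone above a group at or near 0: Scap at 5.87 CPM in WT cortex replicate 1, Idi1 at 1.598 in CD11c-negative APP hippocampus replicate 1, Sqle at 1.44 and Tm7sf2 at 0.240 in CD11c-negative APP cortex replicate 2, Cyp51 at 0.282 in WT hippocampus replicate 1, Stard4 at 0.459 in WT hippocampus replicate 3, and Tm7sf2 at 9.23 in WT cortex replicate 1, whose next value was 0.436.

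Tm7sf2 reached 30.7 CPM in WT hippocampus replicate 1 against 0.918 in the next replicate, from 109 counts in 1 cell. Sqle in WT hippocampus replicate 3 stood at 8.72 CPM against 0.282. Sc5d stood at 26.8 CPM in WT hippocampus replicate 2 against 0.845, and at 68.4 CPM in CD11c-negative APP cortex replicate 2 against 6.94. Idi1 in CD11c-negative APP cortex replicate 4 was at 24.5 CPM against 3.16. Hmgcs1 in CD11c-negative APP hippocampus replicate 4 was at 68.7 CPM against 3.73. Msmo1 was at 77.6 CPM in WT hippocampus replicate 3 against 12.3, and at 248 CPM in CD11c-positive APP cortex replicate 1 against 96.6. The cause of these values was not tested.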

How the results depend on the processing

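Depth and cells limit these results: each member was counted in 12 to 183 of 2657 cells, so 1 cell can set a replicate's value. Of the 35 pairs of a member and a comparison with an unadjusted p under 0.05, no alternative turned the direction. Many of these pairs had a group at or near 0 counts, where the direction could hardly turn. Settings that left a gene without counts in the groups compared were not included. The pairs were also chosen by their p-values in these data, so the kept direction is no measure of stability. Outside left-out replicates, 288 alternative values kept their side of the threshold, 18 passed it newly and 11 no longer passed, and with 1 replicate left out these were 249, 1 and 14. Alternative scaling (RLE) changed no call. It moved the median of all genes from 0.15 to 0.02 (CD11c-positive against WT cortex), 0.01 to 0.14 (genotype in hippocampus), −0.22 to −0.34 (WT regions), and for the gate and genotype differences between regions to −0.24 and 0.38. The cause of the changes below was not tested.

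Members called by edgeR, against 0 with all settings kept, became 1 in the cortical gate with only the groups compared (Stard4) and 3 when cells with a count replaced counts (Msmo1, Sc5d, Stard4), with 1 in limma voom and 1 in DESeq2. They became 1 in the hippocampal gate with cells counted (Sqle), 2 for the cortical genotype in DESeq2, and, for CD11c-positive against WT cortex, 2 with only the groups compared (Idi1, Stard4), 3 with cells counted (Acat2, Idi1, Msmo1), 4 in limma voom and 1 in DESeq2. The region comparisons gave 1 in DESeq2 (WT and CD11c-negative APP) and 1 in limma voom (CD11c-positive APP). The differences between regions gave 1 in DESeq2 for the gate, and for the genotype 1 in DESeq2 and 1 with cells counted (Insig2).

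The 1 call of the hippocampal genotype became 0 without the filter, with the covariate and without cells carrying other markers. It was also 0 in libraries with agreeing tags and in limma voom, and 2 in cells with at least 500 genes (Cyp51, Sc5d). With only the groups compared 0 members were called, but Cyp51 did not pass the low-count filter there and was not tested. With cells counted the 1 call was Insig2, not Cyp51. The 1 call of CD11c-positive against WT hippocampus became 0 without the filter, with only the groups compared, with the covariate and without cells carrying other markers, was Sc5d in place of Cyp51 in cells with at least 500 genes, and became 4 with cells counted (Cyp51, Insig2, Msmo1, Sc5d) and 2 in limma voom (Cyp51, Sc5d). With 1 replicate left out, the counts ran from 0 to 1 for the hippocampal genotype and the WT regions, and were 0 in the others, CD11c-positive against WT hippocampus included. With the replicate block (animal), 0 members were called in the cortical gate, the WT regions and the CD11c-negative APP regions, so no call changed. The fit on agreeing tags could not include hippocampal CD11c-positive cells. For WT cells, then the CD11c-negative and the CD11c-positive gate of APP mice, the share of cells with any member was 34.4%, 32.0% and 56.6% in cortex and 25.5%, 42.4% and 55.5% in hippocampus at 10000 counts, and 22.0%, 21.8%, 43.1% and 15.9%, 24.8%, 38.4% for a count of at least 5 unthinned. Without Msmo1 the summed level of CD11c-positive cortex was 674 CPM.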
